A study of Homo sapiens with 12 samples.

Results

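The regions described here are stretches of the human genome that entered the RORγ peak list of HCC70 cells with the antagonist XY018 and overlapped no RORγ region of the vehicle-treated cells. They were chosen by the RORγ readout itself, as regions on chromosomes 1 to 22 and X that shared not even 1 bp with a vehicle region. There were 68013 of them among 129954 RORγ regions with XY018, or 52.3%. They are called XY018-only regions below. The other 61941 regions of that list overlapped a vehicle region and are called shared regions. Conversely, 106379 of the 167264 vehicle regions overlapped no XY018 region and are called vehicle-only regions. HCC70 is an established cell line derived from a triple-negative breast cancer, that is, one without estrogen receptor, progesterone receptor or HER2 amplification. The cells received vehicle or XY018 for 24 h, at 5 µM by the labels, and chromatin was immunoprecipitated for RORγ, for SREBP2 and for histone H3 acetylated at lysine 27 (H3K27ac). Each antibody and treatment had 1 library, so no difference between treatments has a replicate check and no p-value is given. The RORγ antibody was a polyclonal rabbit serum raised against a fragment of the human protein. Because the choice of regions used the 2 RORγ libraries, their RORγ values are a description only.

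RORγ is a nuclear receptor that binds DNA as a monomer at the ROR response element (RORE), an AGGTCA half-site preceded by an A/T-rich stretch. It drives the gene program of Th17 lymphocytes and takes part in the circadian clock, and its ligands include sterol intermediates. SREBP2 is the transcription factor that turns on cholesterol synthesis and uptake genes when sterols are low. It binds sterol regulatory elements, often beside GC boxes bound by SP1. H3K27ac marks active promoters and enhancers. A peak is a stretch where immunoprecipitated fragments pile up above a local background estimated from the input chromatin. A peak that is called in one library and missing from another may differ in binding or may lie on either side of the calling threshold.

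Sequences of 121 bp centred on the summit are shown for a few XY018-only regions from the GRCh37 (hg19) plus strand, to show what lay under the regions of highest fold and under a RORE core. The first set holds XY018-only regions from among the 10 of highest fold. They were rich in G and C, and capitals mark the single GC box (GGGCGG, both strands) found in the windows shown. The UGT1A window ends in the half-site AGGTCA, left in lower case.
Near EXOC7, chr17:74127173-74127293: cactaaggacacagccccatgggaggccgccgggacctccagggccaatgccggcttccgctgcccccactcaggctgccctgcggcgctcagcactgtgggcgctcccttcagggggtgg
BCL7A intron, chr12:122461946-122462066: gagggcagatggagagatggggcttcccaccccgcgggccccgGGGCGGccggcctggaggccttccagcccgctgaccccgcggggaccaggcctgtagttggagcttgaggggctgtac
UGT1A locus, chr2:234663868-234663988: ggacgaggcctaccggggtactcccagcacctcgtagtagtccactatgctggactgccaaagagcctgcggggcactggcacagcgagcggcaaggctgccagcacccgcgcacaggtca

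The next sequence is that of an XY018-only region with a RORE core within 100 bp of the summit, from among the 5 such regions of highest fold. Capitals mark the core, which is read here as its reverse complement, with the half-site as TGACCT.
Intergenic, chr1:146532661-146532781: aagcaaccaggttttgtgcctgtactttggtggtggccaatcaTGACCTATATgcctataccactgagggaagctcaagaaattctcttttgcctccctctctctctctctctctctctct

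The libraries were first checked for depth and cell identity. The genome-wide background behind the RORγ calls was 0.787 fragments with vehicle and 0.712 with XY018, so the XY018 library was the shallower of the pair. At that background, 3 fragments were enough for a call in either library. H3K27ac summits lay in the promoter windows of 5 of 8 basal breast markers with vehicle and 6 of 8 with XY018, and of 5 of 6 luminal and hormone receptor markers with both treatments. KRT14, a basal keratin, and PGR, the progesterone receptor, had none. ESR1, the estrogen receptor gene, and the luminal markers GATA3, FOXA1, KRT8 and KRT18 had one under both treatments. The marker counts therefore do not separate a basal from a luminal identity. Among 3 blood cell genes, 0 had one with vehicle and 1 had one with XY018.

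XY018-only regions were weak. Their median fold over background was 3.50, with an interquartile range of 2.92 to 3.96, and the highest was 14.6. Shared regions had a median fold of 5.54 and a highest fold of 63.3. The number of fragments at a summit was recovered from the deposited fold and p-value. XY018-only regions had a median of 5 fragments (interquartile range 5 to 7), and 95% of them held at most 9. Shared regions had a median of 10 fragments and vehicle-only regions one of 6. At a false discovery rate of 1e-05, 1619 XY018-only regions remained (2.38%), beside 52.4% of the shared and 2.76% of the vehicle-only regions. The XY018-only regions were also narrow, with a median width of 209 bp, and 41.4% had the smallest width in the list, 195 bp.

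The chance that an XY018 region had no vehicle partner fell steadily with its fragments. It was 85.3% at 3 fragments, 77.6% at 5, 61.7% at 7 and 18.5% at 10 to 14. Among the 5432 regions with 40 or more fragments, 3 were XY018-only (0.0552%). At the border of the rule, 295 XY018-only regions ended within 10 bp of a vehicle region and 292 shared regions overlapped one by at most 10 bp. Both sets had a median of 6 fragments and a median fold of 3.50. A vehicle region lay within 1 kb of 25.2% of the XY018-only regions and within 10 kb of 75.1%, and the median gap was 3.43 kb. The peak lists hold no vehicle value at an XY018-only region, so fewer vehicle fragments there cannot be told apart from a similar number just under the threshold.

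**Figure D1:**
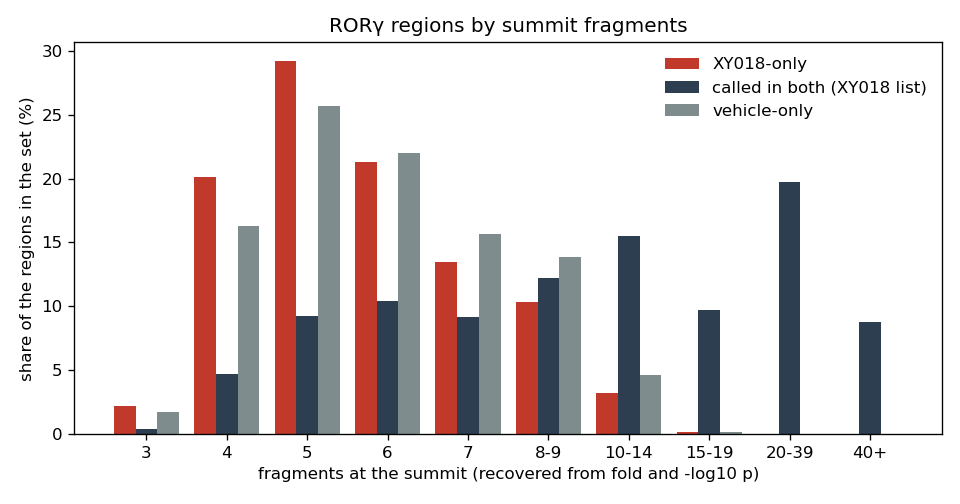
Share of regions (vertical axis, %) by fragments at the summit (horizontal axis) for XY018-only, shared and vehicle-only RORγ regions, each set summing to its own total. XY018-only regions gathered at 4 to 7 fragments with a median of 5, and the classes of 20 or more fragments held mostly shared regions.

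A few XY018-only regions stood well above threshold. The one of highest fold lay between genes at chr17:74127030-74127410, 9576 bp from the nearest coding start, that of the exocyst subunit gene EXOC7. It held 24 fragments (95% Poisson interval 15.4 to 35.7), had a fold of 14.6 and ended 139 bp from a vehicle region. H3K27ac regions there had 20 fragments with vehicle and 13 with XY018, and an SREBP2 region of 31 fragments was called with vehicle only. For H3K27ac and SREBP2, fragments here and below are those of the highest summit among overlapping regions. That summit may lie outside the RORγ region and may differ in position between treatments. The second, at the start of C1orf87 (chr1:60539159-60539676), held 25 fragments and a fold of 13.3, and its nearest vehicle region was 31320 bp away. No H3K27ac region overlapped it, and SREBP2 regions had 35 fragments with vehicle and 21 with XY018.

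The next 5 regions by fold overlapped SREBP2 and no H3K27ac region. An intron of BCL7A, a subunit gene of SWI/SNF chromatin remodelers, held 19 fragments, with 11 SREBP2 fragments under both treatments. An exon of SLC2A4RG, which encodes a zinc-finger regulator, also held 19, with 20 and 14 SREBP2 fragments for vehicle and XY018. A window within the UGT1A cluster of glucuronosyltransferase genes (chr2:234663773-234664103) held 18 RORγ fragments and 18 SREBP2 fragments under each treatment. The region 28732 bp from ENPEP, which encodes an aminopeptidase, held 18 fragments. The TFDP3 promoter, of an E2F partner protein, held 21 at a fold of 11.1. It had 15 SREBP2 fragments with vehicle and 11 with XY018. Further regions of the 10, in an exon of DNAAF11 and an intron of the bromodomain gene BRD1, held 26 and 20 fragments and overlapped H3K27ac with vehicle at 42 and 36 fragments. With XY018, DNAAF11 had an H3K27ac region of 48 fragments and BRD1 had none. SREBP2 was called with vehicle at 10 of these 10 regions. Among shared regions, 99.4% of those with a fold of 7.01 to 12.8 and 99.99% of those above had that call too.

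At protein-coding promoters, the highest folds after C1orf87 and TFDP3 were at NUP58, a nucleoporin gene, with 17 fragments and a fold of 10.5, and at TRAPPC12, a vesicle tethering factor gene, with 15 and 9.35. ABCA2, a lipid transporter gene, had 15 RORγ fragments, and its SREBP2 region had 28 fragments with vehicle and 11 with XY018. HNRNPR, which encodes an RNA-binding protein, had 17 RORγ fragments beside strong H3K27ac, at 247 fragments with vehicle and 254 with XY018. The SNARE gene STX6 had 19 RORγ fragments and 106 and 107 H3K27ac fragments. The AMP deaminase gene AMPD2, with 16 fragments, and the GTPase-activating protein gene GMIP, with 14, were not overlapped by an H3K27ac region there. ARHGAP8 completed the set with 17 fragments, 26 bp from a vehicle region.

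Outside promoter windows, 5 regions were ranked highest among those with H3K27ac and SREBP2 under both treatments. Besides DNAAF11, they lay in an exon of the tankyrase-binding gene TNKS1BP1 (21 fragments), in an intron of the epithelial keratin gene KRT19 (16), 1062 bp from FAM3A (16) and 68211 bp from the salt-inducible kinase gene SIK1 (15). The KRT19 region, chr17:39683834-39684490, had 124 H3K27ac fragments with vehicle and 129 with XY018, and 17 and 15 SREBP2 fragments. Its nearest vehicle RORγ region was 14702 bp away.

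Of the 23 XY018-only regions with at least 20 fragments, 14 lay where the local background was itself at least 4 fragments. Their highest fold was 5.66, and 11 of the 14 had a GC content under 40%. The 9 others all had a GC content of at least 62.7%. Of these 9, all overlapped SREBP2 with vehicle and 7 overlapped H3K27ac. Among shared regions with 20 to 39 fragments, 99.9% overlapped SREBP2 and 65.2% overlapped H3K27ac, both with vehicle.

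H3K27ac and SREBP2 were read from libraries that the choice of regions did not use. H3K27ac regions with XY018 overlapped 5.98% of the XY018-only regions (95% exact binomial interval 5.81 to 6.16), against 20.2% of all RORγ regions with XY018. With vehicle the share was 5.71%, against 20.9%. SREBP2 regions with XY018 overlapped 7.12% (6.93 to 7.32), against 33.9%, and those with vehicle 16.7%, against 43.4%. These intervals cover counting error only, and neighbouring regions are not independent. All 4 lists met at 877 XY018-only regions (1.29%), and 76.4% of the regions had neither mark nor factor. Over all RORγ regions with XY018 these shares were 15.8% and 51.6%. Vehicle-only regions gave similar values, with H3K27ac at 5.46% with XY018 and 4.91% with vehicle, SREBP2 at 5.43% and 13.1%, and 79.4% with neither. As a scale, H3K27ac regions covered 2.21% of the sequenced genome with vehicle and 2.33% with XY018, and SREBP2 regions 1.74% and 1.13%.

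Because XY018-only regions were weaker than shared ones, the shares were also compared within 10 classes of RORγ fold. H3K27ac with XY018 was less frequent at XY018-only than at shared regions by 10.3 percentage points (difference -10.3, 95% interval -17.3 to -3.29, the classes weighted equally). The class of highest fold held 2 XY018-only regions. With classes weighted by their XY018-only regions, a weighting chosen after the values were seen, the difference was -5.42 (-5.93 to -4.90). For SREBP2 with XY018 the differences were -23.6 (-30.6 to -16.6) and -17.2 (-17.9 to -16.5). Thus, within these classes of RORγ fold, regions without a vehicle partner carried SREBP2 less often. The match was loose: a class ran from 4.67 to 7.01, and shared regions were wider, with a median of 388 bp against 209 bp. Width was not matched. With the RORγ summit required inside the SREBP2 region, the equally weighted difference was -21.2 (-28.2 to -14.2).

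The plots of H3K27ac and SREBP2 with XY018 by fragments show XY018-only regions below shared regions in each class drawn. SREBP2 with vehicle is not plotted. It overlapped 8.47% of XY018-only regions with 4 fragments, 17.9% at 6, 30.4% at 8 to 9 and 75.9% of the 108 regions with 15 to 19. It was lower again, at 55%, for the 20 regions with 20 to 39, and 1 of the 3 regions with more overlapped it. Of the 1619 regions at a false discovery rate of 1e-05, 15.3% overlapped H3K27ac with XY018, 58.0% overlapped SREBP2 under at least 1 treatment and 39.96% overlapped neither. At the same cutoff these shares were 56.7%, 98.2% and 1.78% for shared regions. For vehicle-only regions they were 10.0%, 36.0% and 60.9%.

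**Figure D2:**
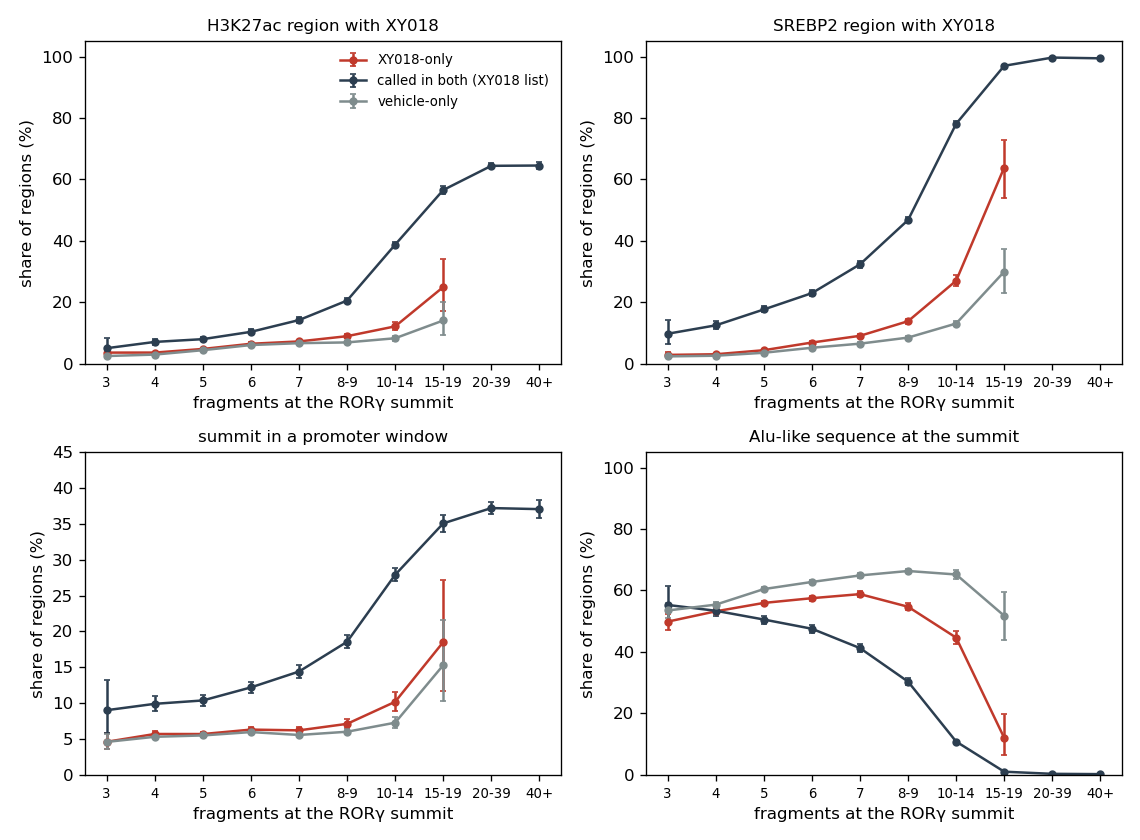
Share of regions (vertical axes, %) that overlapped H3K27ac or SREBP2 with XY018, had their summit in a promoter window, or held Alu-like sequence, by fragments at the RORγ summit (horizontal axes), with 95% exact binomial intervals and classes of at least 100 regions drawn. In the H3K27ac panel the XY018-only regions stood at 12.2% and the vehicle-only regions at 8.34% for 10 to 14 fragments, and in the SREBP2 panel the XY018-only regions lay between the other two sets in each class drawn for all 3.

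It was then asked whether the other libraries moved with the RORγ calls. Of XY018-only regions with an H3K27ac call in 1 treatment, 1586 had it with XY018 and 1402 with vehicle, so 53.1% were gained with the antagonist (51.3 to 54.9). The share was 56.5% (55.02 to 58.0) at vehicle-only regions, where RORγ calls were lost, and 40.1% at shared regions. Over all RORγ regions with XY018 it was 44.9%. The H3K27ac lists themselves held 95099 regions with vehicle and 105371 with XY018. The difference between XY018-only and vehicle-only regions was -3.42 percentage points (-5.72 to -1.11), and it was -2.17 (-4.93 to 0.579) when a vehicle region within 1000 bp also counted as a partner. For SREBP2, 1752 regions had the call with XY018 alone and 8244 with vehicle alone, a share of 17.5% (16.8 to 18.3), beside 20.9% at vehicle-only and 14.9% at shared regions. Over all RORγ regions with XY018 the share was 16.3%. The difference from vehicle-only regions was -3.37 (-4.38 to -2.36). The SREBP2 lists held 117441 regions with vehicle and 69700 with XY018 in all. A gain of H3K27ac or SREBP2 calls was therefore not more frequent where RORγ was called with XY018 alone than where it was called with vehicle alone. At a false discovery rate of 1e-05 the shares were 36.0% (50 gained against 89 lost) and 49.1% (55 against 57) for H3K27ac, and 11.3% and 18.6% for SREBP2.

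Where a RORγ region overlapped an H3K27ac or SREBP2 region under both treatments, the highest overlapping summits were compared per unit of background. The summits compared may differ in position, and a wide region counted again for each RORγ region it overlapped. The median ratio of XY018 to vehicle for H3K27ac was 1.10 at 2483 XY018-only regions, 1.21 at shared and 1.10 at vehicle-only regions. For SREBP2 it was 0.544 at 3090 XY018-only regions, 0.605 at shared and 0.5998 at vehicle-only regions, and 7.06% of the XY018-only regions had a ratio above 1. The highest SREBP2 summits overlapping the XY018-only regions had a median of 16 fragments with vehicle and 10 with XY018.

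**Figure D3:**
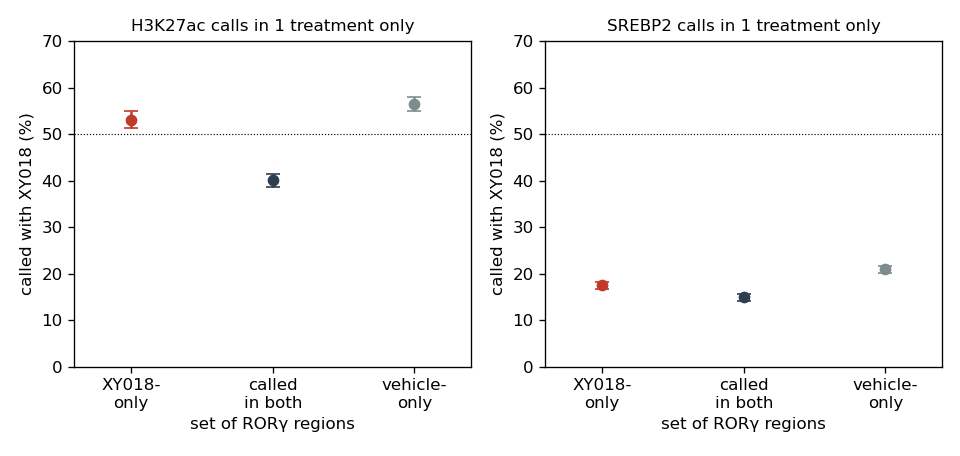
Of regions with an H3K27ac (left) or SREBP2 (right) call in 1 treatment, the share called with XY018 (vertical axis, %) for the 3 sets of RORγ regions, with 95% exact binomial intervals and a dotted line at 50%. For H3K27ac, 53.1% of the XY018-only and 56.5% of the vehicle-only regions gained the call, and for SREBP2 all 3 sets lay below the line.

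XY018-only regions lay mostly away from genes' starts. A summit fell within a promoter window, from 1000 bp before to 100 bp after an annotated transcript start, for 6.19% (6.01 to 6.37), against 15.0% of all RORγ regions with XY018 and 5.74% of the vehicle-only regions. Promoter windows covered 4.56% of the sequenced genome. Of the rest, 4.85% lay in exons, 52.2% in introns and 36.8% between genes. The median distance to a protein-coding start was 23.9 kb, beside 7.08 kb for shared and 23.1 kb for vehicle-only regions. Windows of 201 bp around the summits had a median GC content of 51.7%, against 44.3% at 1000 bp to either side and 67.7% at shared summits. CpG-island-like windows made up 4.56% of the XY018-only regions and 21.4% of all RORγ regions with XY018.

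Along the chromosomes the XY018-only regions followed the vehicle-only regions. There were 24.0 per Mb against 37.5 per Mb, a ratio of 0.639. The ratio ran from 0.579 on chromosome 16 to 0.724 on chromosome 13, while the density itself ran from 11.8 per Mb on chromosome 4 to 81.9 per Mb on chromosome 19. In 587 bins of 5 Mb, the share of XY018-only among regions called in 1 library had a median of 38.3%, from 27.3% to 50.6%. Its SD over bins was 4.26 percentage points, where counting error alone gives 3.43. Long genes held the most summits, led by PTPRN2, which encodes a receptor-type phosphatase, with 129, the splicing factor gene RBFOX1 with 121 and the neurexin family gene CNTNAP2 with 92.

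**Figure D4:**
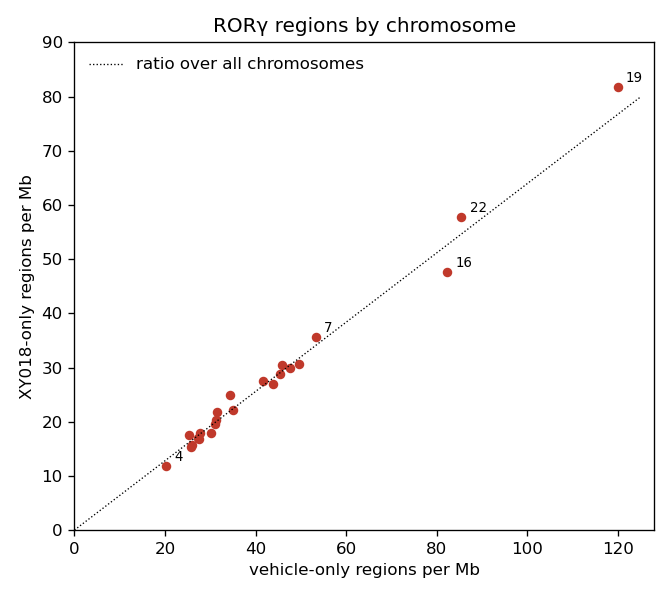
XY018-only (vertical axis) against vehicle-only (horizontal axis) RORγ regions per Mb of sequenced bases for chromosomes 1 to 22 and X, 1 point each. The points lay close to the dotted line, which has the slope 0.639 of the genome as a whole, with chromosome 19 highest at 81.9 per Mb and chromosome 4 lowest at 11.8 per Mb.

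Sequence was also not used by the choice of regions. The RORE core was rare: it lay within 100 bp of 161 XY018-only summits (0.237%, 0.202 to 0.276), against 0.207% of all RORγ regions with XY018, 0.258% of vehicle-only regions and 0.593% of windows 1000 bp from the XY018-only summits. Within classes of like fold it differed from shared regions by -0.0116 percentage points (-0.116 to 0.0927, classes weighted by XY018-only regions), and the sign of the unweighted difference, -0.0275 (-6.03 to 5.98), changed with other settings. The region shown above, chr1:146532676-146532883, held 8 fragments and a fold of 5.26, with no H3K27ac or SREBP2 call. Another, in an intron of PCNX3 (8 fragments), overlapped H3K27ac at 11 fragments and SREBP2 at 25, both with vehicle.

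The nuclear receptor half-site AGGTCA, searched on both strands, was common. It was found at 29.8% of the XY018-only summits (29.5 to 30.2), against 23.1% of all RORγ regions with XY018, 31.3% of vehicle-only regions and 14.4% of the windows 1000 bp away. The half-site is part of the RORE core. The GC box (GGGCGG) was at 10.5% of the XY018-only, 38.9% of the shared and 24.0% of all summits with XY018. A sterol regulatory element (TCACNCCAC) was at 3.20%, beside 1.73% of shared summits, 2.50% of all summits with XY018 and 1.62% of the windows 1000 bp away. Vehicle-only summits had a higher share, 3.67%. Some motifs were less frequent at the summits than beside them, among them the GATA site (AGATAA) at 4.40% against 12.0%, the CCAAT box (CCAAT) at 14.5% against 24.3% and the forkhead site (TGTTTAC) at 0.790% against 2.59%. Over all RORγ regions with XY018 these 3 were at 3.16%, 12.0% and 0.629% of the summits. A match is a run of letters and not evidence of binding.

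The high share of half-sites went together with repeats. Alu elements descend from 7SL RNA and many carry such half-sites. Windows were called Alu-like by a rule chosen after the motif counts were seen. At least 3 positions of the window had to start a 12-base word found in BCYRN1 or RN7SL2 on either strand. Overlapping positions and repeats of a word each counted. BCYRN1 (chr2:47562454-47562653) is an Alu-derived RNA gene and RN7SL2 (chr14:50329271-50329567) a 7SL RNA gene. By this rule 55.4% of the XY018-only summits were Alu-like (55.03 to 55.8), against 15.6% of the windows 1000 bp away and 21.8% of the shared summits. Vehicle-only regions reached 61.7%. With 10 such positions required, the share was 24.6%, against 6.36% beside the summits. Half-sites were at 39.1% of the Alu-like summits and 14.97% of those without any such word, and 72.5% of the XY018-only summits with a half-site were Alu-like. In windows without such words, 11.1% of those 1000 bp away had a half-site. The sterol regulatory element was at 4.19% of the Alu-like XY018-only summits and 1.62% of those without such words. It was at 0.816% of windows without such words 1000 bp away.

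Alu-like summits carried fewer other calls. SREBP2 with XY018 overlapped 3.56% of the Alu-like XY018-only regions and 12.9% of those without such words, and H3K27ac 4.69% and 8.22%. Both kinds had a median of 5 RORγ fragments. Within classes of like fold, Alu-like windows were more frequent at XY018-only than at shared summits by 7.85 percentage points (6.91 to 8.80, classes weighted by XY018-only regions). Leaving out all windows with such a word, the difference in SREBP2 overlap at like fold was -29.7 (-30.7 to -28.7) and that in H3K27ac overlap -11.1 (-11.9 to -10.3). At a false discovery rate of 1e-05, 38.8% of XY018-only, 63.1% of vehicle-only and 2.11% of shared summits were Alu-like. The part that the placement of short reads on repeats had in these calls was not tested.

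**Figure D5:**
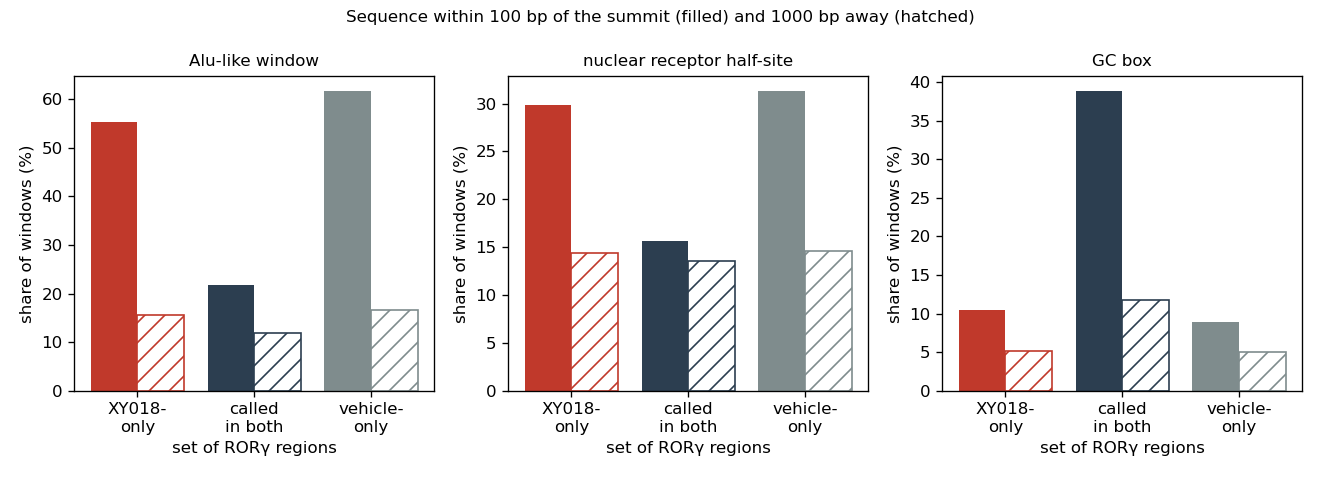
Share of 201-bp windows (vertical axes, %) that were Alu-like, held a nuclear receptor half-site or held a GC box, at the summits (filled bars) and 1000 bp to either side (hatched bars), for the 3 sets of RORγ regions. XY018-only summits were Alu-like in 55.4% and held a half-site in 29.8%, against 15.6% and 14.4% beside them, and the GC box was highest at shared summits.

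Genes were taken from lists of pathways linked to RORγ, SREBP2 and breast cell identity. Of 20090 protein-coding genes, 12.0% had an XY018-only summit in a promoter window and 51.9% had one in the gene body. Of 21 cholesterol biosynthesis genes, 0 had one in a promoter window and 4 had one in the body. Promoters of 13 of these genes held a RORγ summit with vehicle and 12 with XY018, beside 9935 and 9552 of all 20090 protein-coding genes. Of 20 genes for sterol regulation, uptake and efflux, 5 had one in a promoter window and 14 in the body, all of few fragments. SREBF1, which encodes SREBP1, had a region of 7 fragments and a fold of 4.67, 311 bp from a vehicle region, with 13 SREBP2 fragments under each treatment. SREBF2, the gene of SREBP2 itself, had 4 fragments and a fold of 2.52, and no SREBP2 or H3K27ac region overlapped this stretch, though H3K27ac summits lay in SREBF2 promoter windows under both treatments. MBTPS1, the protease that cleaves SREBPs, had 5 fragments, 26054 bp from a vehicle region. NR1H2, the sterol receptor LXRβ, had 3 regions of 4 or 5 fragments.

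Of 20 circadian clock genes, 1 had an XY018-only summit in a promoter window, the repressor gene PER1, with 5 fragments and a fold of 3.22. Of 18 Th17 genes, 3 had one. The chemokine receptor gene CCR6 had 4 fragments in a region that no H3K27ac or SREBP2 region overlapped. MAF, a transcription factor gene, had 8 fragments and a fold of 4.18, with 20 SREBP2 fragments with vehicle and 11 with XY018. CTSH, which encodes a cathepsin, had 4 fragments. The highest summits of its overlapping H3K27ac regions had 12 fragments with vehicle and 66 with XY018. These summits need not share a position, so the values are not read as a change at the RORγ region.

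Of 18 nuclear receptor coregulator genes, 4 had an XY018-only summit in a promoter window and 13 in the body. Among them were the corepressor gene NCOR1 (6 fragments) and the acetyltransferase genes EP300 (10 and 6) and CREBBP (8), the windows of all annotated transcripts of a gene being counted. Among 18 cell cycle and MYC genes, 4 had one, with CDKN1B, a cyclin-dependent kinase inhibitor gene, at 9 fragments and a fold of 5.10, CDKN2B at 6, E2F1 at 5 and CCND1, the gene of cyclin D1, at 4. Among 16 basal identity genes, 2 had one. ITGB4, which encodes integrin β4, had 6 fragments. In the luminal and hormone receptor list 0 of 16 genes had one, in the AP-1 list 1 of 16 (MAFK, 6 fragments) and in the apoptosis list 1 of 18 (MCL1, a survival gene, 7 fragments). Over all lists, 21 of 178 genes had an XY018-only summit in a promoter window, close to the 12.0% of all protein-coding genes. Of these 21, 5 had no vehicle RORγ summit in any of their promoter windows, beside 837 of 2410 over all protein-coding genes.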

How the data were processed

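Peak lists of 6 immunoprecipitated HCC70 libraries were used, and 6 input libraries were not. The authors mapped single-end reads to hg19, with BWA by the study's methods and Bowtie2 by the submitters' processing notes, and called peaks against input with MACS2 2.1.0. The deposited lists give a fold enrichment (a ratio to local background) and -log10 p- and q-values, and start near 2 on the -log10 p scale. The labels give 5 µM XY018 where the study's methods state a lower dose. Total read numbers are not given in the sources used here.

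Fragments at each summit were recovered from fold and -log10 p by the Poisson model of MACS2, and were whole within 5% of a step for at least 99.999% of regions in each list. Regions sharing at least 1 bp overlapped. Annotation came from GENCODE 44 lifted to GRCh37. CpG-island-like meant a GC content of at least 55% and an observed-to-expected CpG ratio of at least 0.6. Python 3.11.15 and scipy 1.17.1 were used, and the recovery was checked on data made with known answers. Intervals are exact binomial or Poisson at 95%, or normal for differences.

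The members and gene lists were chosen with earlier results of these data known. Named were the 10 XY018-only regions of highest fold, the 10 highest at protein-coding promoters, the 5 highest outside promoters with all 4 other calls, the 5 highest with a RORE core, genes of the cholesterol, clock and Th17 lists with a promoter summit, and the markers. Genes of the other lists, and those with most summits, were named after their values were seen. Some genes and sequences that these rules give are not reported here.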

Additional observations from a re-analysis of the deposited data

Results flagged for a closer look

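Chromosome Y was outside the choice of regions, and its calls are listed here because no comparison of the report uses them. Of 93 RORγ regions with XY018 there, 17 overlapped no vehicle region, beside 52.3% of the regions on the other chromosomes. The H3K27ac lists held 1 region on chromosome Y with each treatment. Whether the cells carry a chromosome Y, and the part of misplaced reads in these calls, was not tested. The calls are therefore not read as RORγ binding there.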

How the results depend on the processing

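Of 73 alternative values, 41 kept their direction and moved by less than their interval or 1.5 times, 29 moved further and 3 changed sign. The number of XY018-only regions was 24207 at q up to 0.01 and 1619 at q up to 1e-05, where the median was 10 fragments. Overlap with H3K27ac with XY018 was 7.51% and 15.3% at these q-values, 6.21% with 50% overlap required for a vehicle partner, 5.20% with vehicle regions within 1000 bp counted and 5.26% with the RORγ summit inside the region. For SREBP2 these were 11.7%, 34.7%, 8.11%, 5.38% and 5.49%, and 7.83% with lists of equal length. Promoter shares were 6.82% and 12.4% at these q-values, 6.55% at 50% overlap, 4.63% with regions within 1000 bp counted and 33.6% with a 5000 bp window. Without fold classes the differences from shared regions were -29.9 for H3K27ac and -56.2 for SREBP2, and at q up to 1e-05 that for H3K27ac was -27.0. Gained calls differed by -6.61 at q up to 0.01 and -13.1 at 1e-05 for H3K27ac, and by -7.31 at 1e-05 for SREBP2. Genes of the lists with a promoter region numbered 21 in the report, 10 and 1 at the stricter q-values, 6 with regions within 1000 bp counted and 66 with the 5000 bp window. The share over all protein-coding genes was counted only for the setting of the report. The other counts are therefore not read as a result about the lists. The RORE difference of -0.0275 became 0.00691 at q up to 0.01, 0.00599 at 50% overlap and 0.0624 without classes. The causes of these moves were not tested. No paired analysis was possible because each antibody and treatment had 1 library. Weighting classes by XY018-only regions was chosen after seeing the data. At the recovered backgrounds a call needed 3 fragments, and 95% of the XY018-only regions held at most 9, so most rest on few fragments.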
